A study of Mus musculus with 2 samples.

Results

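Genes for filamin C, the Xin-repeat proteins and related scaffold proteins of the muscle Z-disc were followed in long-read RNA sequencing of mouse calf muscle. The set was chosen by name and held 7 genes, Flnc, Xirp1, Xirp2, Nrap, Smpx, Ankrd2 and Cmya5, out of 14704 annotated genes with at least 1 read. All 7 had reads in both libraries, on 168 transcript models and 1080 reads in replicate 1 and on 102 models and 639 reads in replicate 2. A transcript model is 1 exon structure to which the authors assigned reads.

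The tissue was gastrocnemius, the large calf muscle, of male B6CASTF1/J mice, which are first-generation hybrids of C57BL/6 and CAST, at 14 days of age and with no treatment named in the labels. The series holds 1 group with 2 libraries numbered as biological replicates, each from 2 µg of RNA, so there is no contrast between conditions. Both labels carry the same donor identifier and speak of several males, and they do not state whether each library was a pool or whether the libraries came from separate animals. Each SD below therefore measures the spread between these 2 libraries, which may be technical. Each test below sets a difference between the 2 libraries against counting error only, and such a difference may be technical too.

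Sarcomeres, the contractile units of a muscle fibre, are joined end to end at Z-discs. Filamin C crosslinks actin filaments at the Z-disc and at the membrane attachments around it. Xin proteins, encoded by Xirp1 and Xirp2, bind actin, and forms of Xin from Xirp1 bind filamin C. Nrap is a nebulin-related anchoring protein with a role in assembling myofibrils. Smpx is a small protein of the costamere region, Ankrd2 is a stretch-responsive ankyrin-repeat protein that moves between sarcomere and nucleus, and Cmya5 (myospryn) is a very large protein that binds desmin and dysbindin.

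Replicate 1 held 1094607 reads outside the ERCC spike-in RNAs and replicate 2 held 626289, and levels are given as reads per 1000000 of these (CPM). A count of 0 allows up to 2.74 CPM in replicate 1 and 4.79 CPM in replicate 2, 3 reads in either. The 6 markers of skeletal muscle fibres summed to 171792 CPM in replicate 1 and 160517 CPM in replicate 2. Heart muscle markers summed to 13.7 CPM and 46.3 CPM, with no read for Myl7 or Nppa. Fibroblast markers stood at 6908 CPM in replicate 1 and 2716 CPM in replicate 2, and Schwann cell markers at 134 CPM and 292 CPM. In bulk RNA, fewer cells of a type and less RNA per cell cannot be told apart.

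The 7 genes together took 987 CPM in replicate 1 and 1020 CPM in replicate 2, a mean of 1003 ± 23.8 CPM (SD, n = 2). Levels of different genes are compared first as CPM per kilobase of the longest annotated coding transcript, and then as CPM not divided by length. Most reads held the last exon even for long members (98.8% and 100% for Flnc, 97.3% and 100% for Xirp2 in replicates 1 and 2). A count of such reads need not grow with RNA length, and dividing by length then sets long members lower. Which scale is nearer to RNA levels was not tested. Per kilobase, Smpx was highest with 284 ± 45.6 CPM per kilobase (SD, n = 2), followed by Ankrd2 with 102 ± 46.4 and Nrap with 47.7 ± 13.7 CPM per kilobase. On that scale the ranges of these 3 genes did not overlap one another or those of the other 4. Xirp2, Flnc, Xirp1 and Cmya5 lay between 8.66 and 7.66 CPM per kilobase, and neighbours in that order overlapped. The order depended on the scale. In CPM not divided by length, Nrap (316 and 209 CPM) lay above Ankrd2 (78.6 and 153 CPM) with no overlap, while Nrap overlapped Smpx (273 and 343 CPM) and Ankrd2 overlapped Xirp2 (100.5 and 107 CPM).

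**Figure D1:**
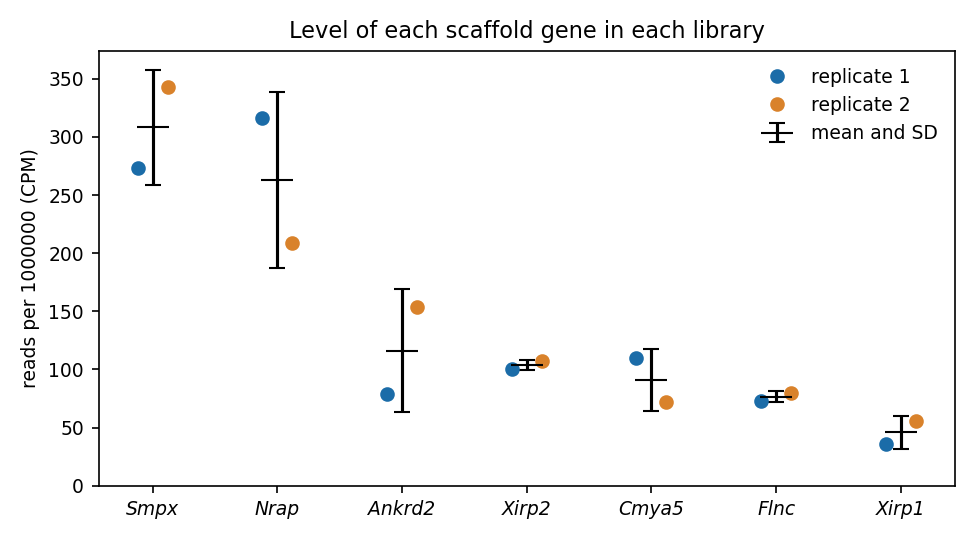
Level of each gene in each library, in reads per 1000000 outside the spike-in RNAs (CPM, linear axis, not divided by length). Dots are replicate 1 and replicate 2, the black bar is the mean and the whiskers are the SD of n = 2; Nrap and Ankrd2 show the widest gaps, 316 against 209 CPM and 78.6 against 153 CPM.

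The libraries differed for 2 of the 7 genes, 1 in each direction. Nrap had 346 reads (316 CPM) in replicate 1 and 131 reads (209 CPM) in replicate 2. Ankrd2 had 86 reads (78.6 CPM) in replicate 1 and 96 reads (153 CPM) in replicate 2. Nrap was thus higher in replicate 1 by 0.59 on the log2 scale (Fisher's exact test, two-sided, Benjamini-Hochberg adjusted p = 0.000684). Ankrd2 differed by -0.96 on the same scale, lower in replicate 1 (exact test, adjusted p = 0.000178). Of all 7955 genes tested, 13.5% were called, with 548 (6.89%) higher in replicate 1 and 522 (6.56%) higher in replicate 2. With totals scaled by TMM factors, which moved the median of all genes by -0.18 on the log2 scale, that split was 266 and 663, and Smpx was then also called, lower in replicate 1 (exact test, adjusted p = 0.00126). On complete models only, with 132 reads in replicate 1 and 50 in replicate 2, the log2 difference of Nrap was again 0.59 but was not called (exact test, adjusted p = 0.085).

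RNA length moved with the library difference across the whole table. Among genes with at least 20 reads in each library, the 750 whose longest coding transcript is under 1500 bases had a median log2 difference of -0.45. It was 0.26 for the 749 of 3000 to 6000 bases and 0.38 for the 131 of at least 6000 bases. Ankrd2 has a transcript of 1138 bases and Nrap one of 5501 bases, and both differed in the direction of their length class. So did Cmya5 (0.60) and Smpx (-0.33), while Flnc (-0.13), Xirp2 (-0.09) and Xirp1 (-0.65) differed against theirs. The part of length, or of the marker sums given above, in these differences was not tested. Apart from Nrap and Ankrd2, the other 5 genes were not called. Cmya5 stood at 110 and 71.9 CPM (adjusted exact p = 0.0913) and Smpx at 273 and 343 CPM (adjusted exact p = 0.0752) in replicates 1 and 2. Xirp1 stood at 35.6 and 55.9 CPM, Flnc at 73.1 and 79.8 CPM and Xirp2 at 100.5 and 107 CPM. Annotated genes on the strand opposite Xirp2, Nrap and Cmya5 had between 0 and 2 reads each in a library.

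How far the reads covered each RNA differed widely among the 7 genes. Smpx and Ankrd2, with short RNAs, were read nearly end to end, Nrap and Xirp1 in part, and Flnc, Cmya5 and Xirp2 almost always as 3′ pieces. Complete models are annotated chains of introns or new chains that are not a fragment of one. A new chain need not span the whole RNA, as in Flnc chains of 17 and 20 exons where Flnc-201 has 48. Complete models held 96.3% of Smpx reads and 83.5% of Ankrd2 reads as means of the libraries. The same share was 45.8% for Xirp1, 38.2% for Nrap, 9.75% for Flnc, 4.03% for Cmya5 and 0.455% for Xirp2. The comparison set was all 2674 genes with an annotated protein-coding transcript and at least 20 reads in each library. Over these the median was 93.0% in replicate 1 and 90.5% in replicate 2, and over the 131 of at least 6000 bases it was 71.3% and 69.2%. Flnc, Cmya5 and Xirp2, all longer than 6000 bases, lay below the median of their length class. So did Nrap and Xirp1 in the class of 3000 to 6000 bases (medians of 87.5% in replicate 1 and 84.1% in replicate 2) and Ankrd2 in the class under 1500 bases (96.7% and 95.5%).

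**Figure D2:**
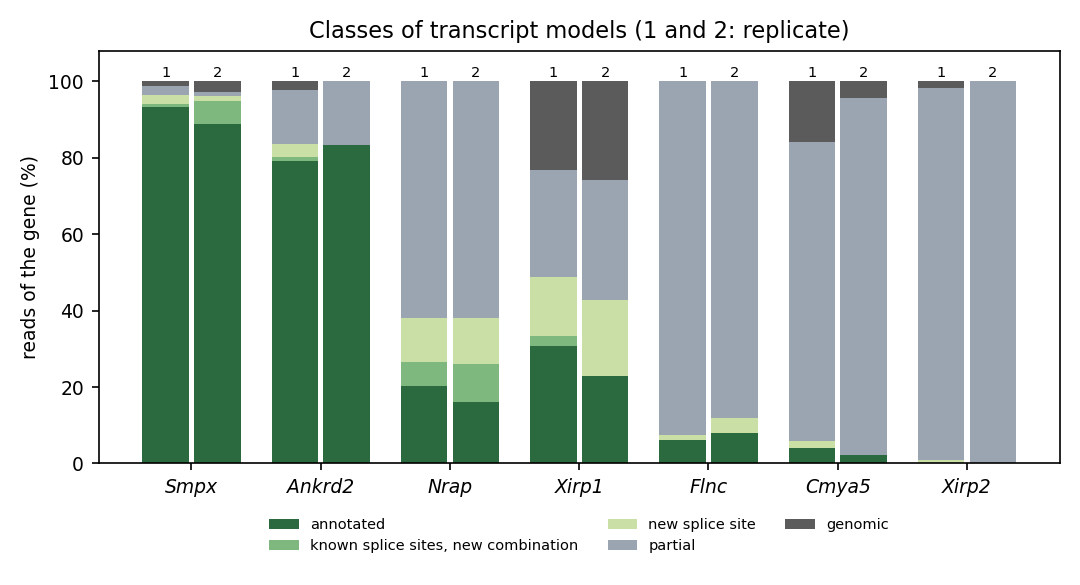
Percent of each gene's reads by class of transcript model, genes ordered from the shortest to the longest annotated transcript, with replicate 1 left and replicate 2 right in each pair. Partial models are fragments of an annotated chain, and genomic models overlap a gene without its splicing; partial models held 61.8% of Nrap reads in both libraries and 97.3% and 100% of Xirp2 reads in replicates 1 and 2.

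Flnc has 48 annotated exons and a transcript of 9038 bases on chromosome 6. Its reads thinned out steadily toward the 5′ end. The last exon was on models holding 98.8% of reads in replicate 1 and 100% in replicate 2. Exon 40 was on 60.0% and 42.0%, and exon 20 on 22.5% and 14.0%. The first exon was reached by 5 of 80 reads in replicate 1 and 5 of 50 in replicate 2.

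The annotated forms of Flnc differ at exon 31, a 99-base exon of 33 codons that Flnc-201 includes and Flnc-202 skips. In human filamin C the corresponding segment lies in the first hinge between immunoglobulin-like repeats. Its sequence is printed because it is the piece of coding RNA that most informative Flnc reads lacked. Here and in the other sequences the capitals mark the exon or bases in question and the lower-case letters the flanking exons, from the GENCODE M21 transcripts on mm10. The exon lies at chr6:29452799-29452897 on the plus strand.
Flnc exon 31: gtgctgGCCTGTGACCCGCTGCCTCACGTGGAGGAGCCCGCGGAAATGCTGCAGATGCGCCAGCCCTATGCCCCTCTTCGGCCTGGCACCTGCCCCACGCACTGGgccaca

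Exon 31 was spliced in for 0 of 34 informative reads in replicate 1 and 2 of 14 in replicate 2. A read was informative when its model spliced from the exon before to the exon after, with or without it. The exact 95% intervals were 0 to 10.3% and 1.78 to 42.8%, which overlap, so no difference between the libraries was detectable at this depth. This choice was picked for description after its values were seen, from the difference between the 2 annotated forms.

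**Figure D3:**
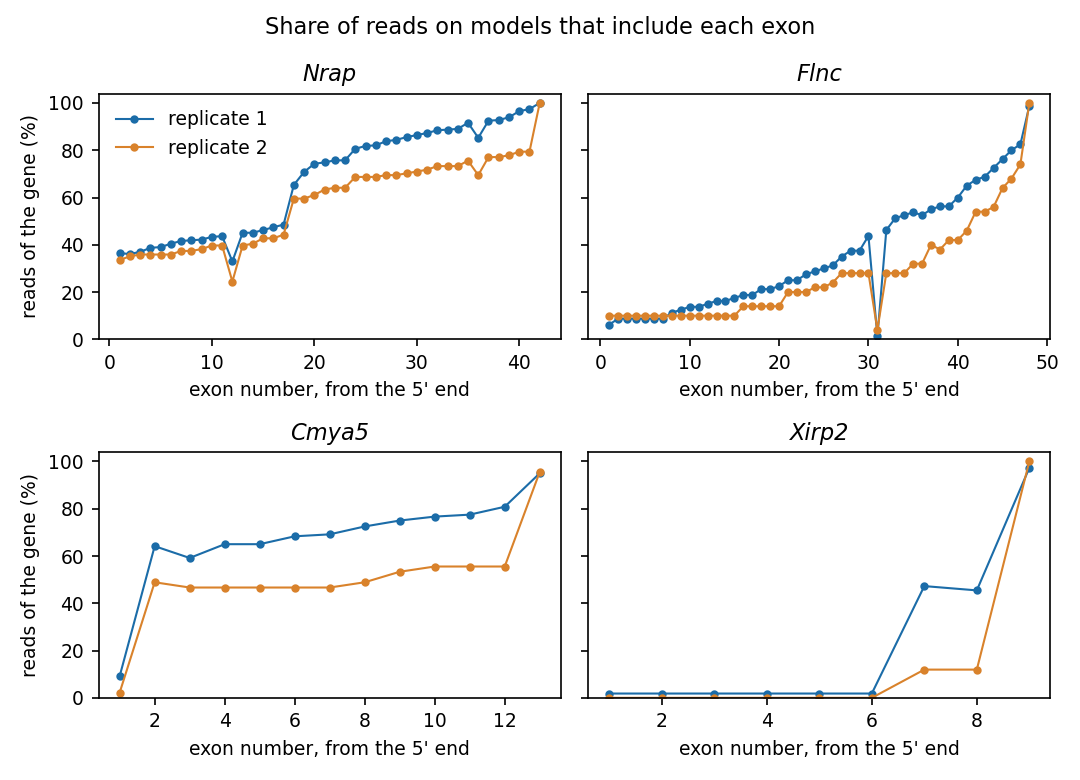
Percent of a gene's reads on models that include each exon, against exon number from the 5′ end, for the 4 genes with many exons or a giant exon. Blue is replicate 1 and orange is replicate 2. Flnc falls steadily, with a dip at exon 31. Nrap drops at exon 18 and, in replicate 2, also from the last exon (100%) to exon 41 (79.4%). Xirp2 falls most from exon 9 (97.3% in replicate 1, 100% in replicate 2) to exon 8 (45.5% and 11.9%). It falls again from exon 7, of 9265 bases, to exon 6 (1.82% and 0%). Cmya5 falls from exon 13 (95.0% and 95.6%) to exon 12 (80.8% and 55.6%). It falls most from exon 2, of 9310 bases (64.2% and 48.9%), to exon 1 (9.17% and 2.22%). A model that begins anywhere inside an exon counts as including it, so the place of a drop within an exon is not shown.

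Xirp1 encodes Xin, and in Xirp1-201 the start codon lies in exon 2 and the stop codon in exon 3. Exon 2 has 3394 bases or 58.1% of the transcript. The gene is on the minus strand of chromosome 9. Models that include the first of its 3 exons held 23 of 39 reads in replicate 1 and 17 of 35 in replicate 2. The annotated form Xirp1-201 took 12 of 19 complete reads and 8 of 15. Genomic models, which overlap the gene without its splicing, held 23.1% of reads in replicate 1 and 25.7% in replicate 2. In each library these reads were on 1 model. That of replicate 1 spanned the intron between exons 2 and 3, and that of replicate 2 did not.

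Exon 2 of Xirp1 was joined at either of a pair of acceptor sites 3 bases apart. The extra bases sit in the 5′ untranslated region, with 1 base between them and the start codon, at chr9:120019817-120019819. The sequence shows how close the choice lies to the start codon (the first atg after the capitals).
Xirp1 exon 2 start: gccagacccttgAAGgatggctgatgccca

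The AAG was kept in 16 of 21 informative reads in replicate 1 and 11 of 14 in replicate 2, a mean of 77.4% ± 1.68 (SD, n = 2). The 391-base intron between exons 2 and 3 was retained in 4 of 28 reads and 3 of 20 reads, a mean of 14.6% ± 0.505. On complete models alone it was in 0 of 17 and 0 of 10 reads. With genomic and single-exon models also counted it was in 13 of 37 reads in replicate 1 and 3 of 20 in replicate 2, a mean of 25.1%. The rise was in replicate 1 alone and rested on its 1 genomic model. A few Xirp1 reads, 2 of 39 in replicate 1 and 6 of 35 in replicate 2, ran into an exon 9119 bases past the 3′ end of the gene, at chr9:120004227-120004635. That stretch lies inside the annotated span of Cx3cr1 on the same strand, a chemokine receptor gene that had 0 reads in either library.

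Xirp2 encodes the second Xin-repeat protein, and 77.3% of its 11979-base transcript is the single exon 7 of 9265 bases. It had 110 reads in replicate 1 and 67 in replicate 2, and 1 complete read in all. The first exon was reached by 2 of 110 reads and 0 of 67, which allows a share of up to 4.48% in replicate 2. Models began in exon 7 for 50 reads in replicate 1 and 8 in replicate 2. A further 57 and 59 reads began in the last exon, exon 9, so nearly all Xirp2 reads described the last 3 exons.

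The 3′ end of the Xirp2 coding sequence was covered by more reads. The annotation offers 2 acceptor sites of exon 8, 16 bases apart, and these place the stop codon in exon 8 (Xirp2-202) or in exon 9 (Xirp2-201). The bases at issue lie at chr2:67519220-67519235 on the plus strand, followed by the part of exon 8 that both forms share.
Xirp2 exon 8 start: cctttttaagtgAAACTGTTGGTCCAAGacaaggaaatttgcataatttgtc

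All 49 informative reads in replicate 1 and all 8 in replicate 2 kept the 16 bases, as in Xirp2-202. No read used the other site, which over the 57 reads allows a share of up to 5.26%. This choice was also picked after its values were seen, and the limit covers counting error only.

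Nrap has 42 annotated exons on the minus strand of chromosome 19, many of which encode nebulin-like repeats. Its 5′ end was reached by 126 of 346 reads in replicate 1 and 44 of 131 in replicate 2. The rest did not begin evenly along the RNA. Exon 18 was the 5′-most exon of 58 reads (16.8%) in replicate 1 and 20 reads (15.3%) in replicate 2. Among the other internal exons the highest share was 5.49% in replicate 1, at exon 19, and 3.82% in replicate 2, at exon 24. Each model lists 1 pair of ends for all of its reads, so the position inside exon 18 was not resolved. Exon 18, printed because so many models begin in it, lies at chr19:56363926-56364027.
Nrap exon 18: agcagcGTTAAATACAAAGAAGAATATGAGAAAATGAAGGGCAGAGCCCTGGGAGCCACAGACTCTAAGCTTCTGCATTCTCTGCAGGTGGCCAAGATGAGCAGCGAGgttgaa

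**Figure D4:**
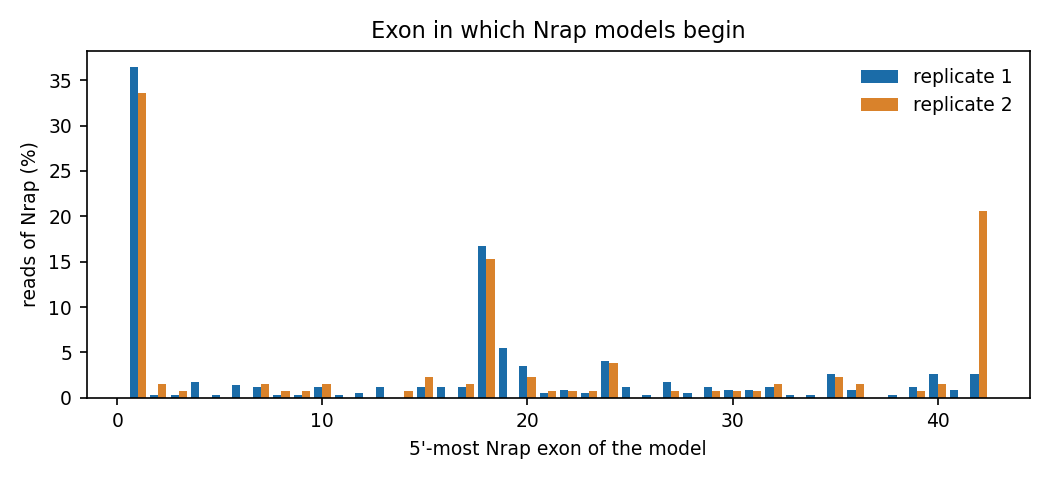
Percent of Nrap reads whose model begins in each exon, exon number counted from the 5′ end. Bars for replicate 1 (blue) and replicate 2 (orange) stand out at exon 1, at exon 18 (16.8% and 15.3%) and, in replicate 2, at the last exon (2.60% and 20.6%).

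Nrap was spliced in many ways, with 34 chains of introns among 132 complete reads in replicate 1 and 50 in replicate 2. Nrap-202, which has all 42 exons, took 35.6% and 26.0% of them. Nrap-201, with 41 exons, took 23 of the 132 reads and 8 of the 50. Between them came an unannotated chain of 42 exons with 30 and 9 reads, which differs from Nrap-202 by 3 extra bases before exon 6. Among the 3 members with enough reads for the test of the leading share, Nrap, Smpx and Ankrd2, 0 were called between libraries (Fisher's exact test, adjusted p = 1 for each), where 0.666% of the 2103 genes tested were called. Ankrd2 alone had an unadjusted exact p under 0.05, at 0.0481.

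Exons 12 and 36 of Nrap are both 105 bases, or 35 codons, long, and both were skipped in part of the reads. Each therefore adds or removes a whole number of codons. They lie at chr19:56374364-56374468 and chr19:56328996-56329100 and are printed side by side as 2 optional segments of the same length.
Nrap exon 12: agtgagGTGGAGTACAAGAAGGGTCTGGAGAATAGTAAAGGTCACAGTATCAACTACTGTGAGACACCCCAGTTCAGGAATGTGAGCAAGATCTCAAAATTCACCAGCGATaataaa
Nrap exon 36: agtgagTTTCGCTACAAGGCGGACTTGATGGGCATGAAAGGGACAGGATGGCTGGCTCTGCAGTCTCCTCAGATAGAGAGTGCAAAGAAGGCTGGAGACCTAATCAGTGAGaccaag

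Exon 12 was included in 112 of 150 informative reads in replicate 1 and 31 of 50 in replicate 2, a mean of 68.3% ± 8.96 (SD, n = 2). Exon 36 was included in 292 of 317 reads and 89 of 99 reads, a mean of 91.0% ± 1.57. Skipping was thus the more frequent at exon 12, in both libraries. The 3 extra bases before exon 6, at chr19:56382365-56382367, were kept in 49 of 135 reads in replicate 1 and 19 of 47 in replicate 2, a mean of 38.4% ± 2.92.

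Cmya5 has 13 exons on the minus strand of chromosome 13, and exon 2, with 9310 bases, is 78.6% of its 11850-base transcript. Models began in exon 2 for 66 of 120 reads in replicate 1 and 21 of 45 in replicate 2, while the first exon was reached by 11 and 1 reads. Exon 3, just after the giant exon, was on models with 59.2% of reads in replicate 1 and 46.7% in replicate 2. The annotated form Cmya5-201 took 5 of 7 complete reads in replicate 1 and the 1 complete read of replicate 2.

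The share of single-exon models differed between the libraries for 3 of the 7 genes, Nrap, Xirp2 and Cmya5, and was lower in replicate 1 each time. For Nrap they held 9 of 346 reads in replicate 1 and 27 of 131 in replicate 2 (Fisher's exact test, adjusted p = 3.16e-08). For Xirp2 they held 59 of 110 reads and 59 of 67 (exact test, adjusted p = 3.27e-05). For Cmya5 they held 19 of 120 reads and 20 of 45 (exact test, adjusted p = 0.00443). Of 2657 genes tested, 12.3% were called, and 325 of the 328 called (12.2% of those tested) were higher in replicate 2, the direction of these 3 genes. The comparison was added after the data were seen.

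Smpx lies on the plus strand of the X chromosome and has a transcript of 1087 bases. It was the most completely read member, with 286 of 299 reads in replicate 1 and 206 of 215 in replicate 2 reaching the first exon. The chain of 6 exons annotated as both Smpx-201 and Smpx-208 took 80.2% and 77.8% of complete reads. Smpx-203, which lacks the 35-base exon 5, took 15.3% and 13.5%. Exon 5 was included in 246 of 292 informative reads and 172 of 208, a mean of 83.5% ± 1.10 (SD, n = 2).

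Exon 5 of Smpx lies after the stop codon, so both forms share 1 coding sequence. The stop codon stood 52 bases before the last exon junction with exon 5 and 17 bases before it without. The annotation calls Smpx-201 a target of nonsense-mediated decay and Smpx-208 protein coding although they have the same introns, so the share of reads on either cannot be split by splicing. The coding exon 3 of Smpx, 87 bases or 29 codons, was nearly constant. It is printed as a coding exon of Smpx that some reads skipped, and lies at chrX:157714587-157714673.
Smpx exon 3: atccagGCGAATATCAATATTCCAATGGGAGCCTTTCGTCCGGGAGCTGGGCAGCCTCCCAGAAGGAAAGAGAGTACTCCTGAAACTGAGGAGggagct

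Exon 3 was included in 281 of 281 informative reads in replicate 1 and 191 of 200 in replicate 2, so skipping was seen in replicate 2 alone. The 0 skipping reads of replicate 1 allow up to 1.07%, and this exon was picked after its values were seen.

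**Figure D5:**
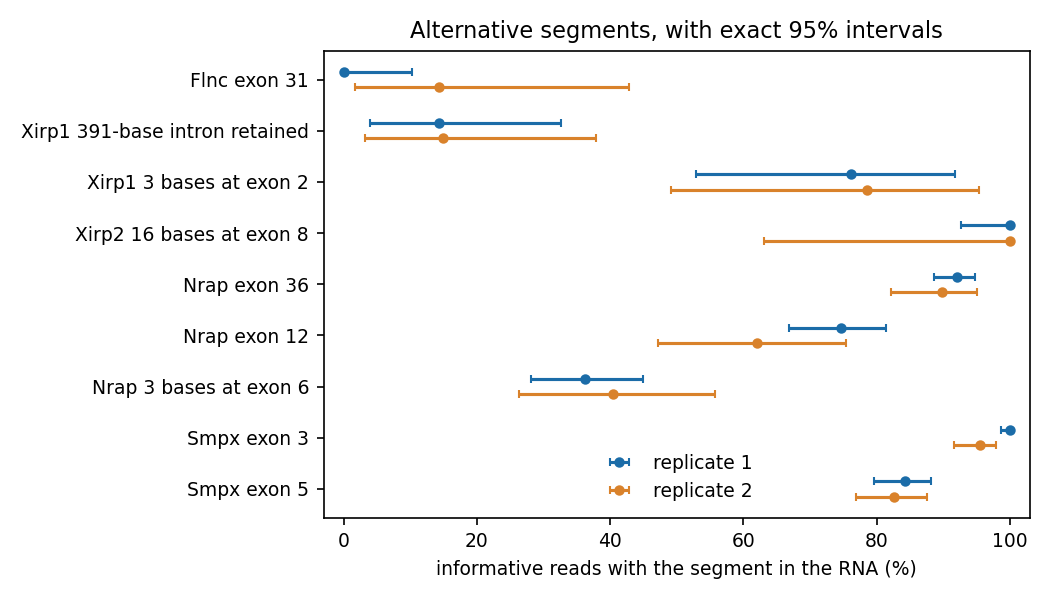
Percent of informative reads that hold each alternative segment, with exact 95% intervals that cover counting error only, for replicate 1 (blue, upper) and replicate 2 (orange, lower). Intervals of the libraries overlap for every segment shown except Smpx exon 3, where replicate 1 had 100% and replicate 2 had 95.5%.

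Ankrd2 lies on the plus strand of chromosome 19 with 9 exons. It was spliced in nearly one way. The chain annotated as Ankrd2-201 and Ankrd2-202 took 68 of 72 complete reads in replicate 1 and 80 of 80 in replicate 2. The first exon was reached by 83.7% and 83.3% of its reads.

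Relatives and partners of these proteins were counted in the same libraries from a list of 45 genes, of which 44 had reads. Casq1, a calcium-binding protein of the sarcoplasmic reticulum, had 8675 ± 1558 CPM, the Z-disc crosslinker Actn3 6240 ± 907 CPM, the intermediate filament gene Des 3429 ± 290 CPM and the calcineurin-binding Myoz1 2583 ± 286 CPM (SD, n = 2). Of the paralogs named here, Flna had 22.8 ± 5.19 CPM (SD, n = 2). Of the ankyrin-repeat relatives of Ankrd2, Ankrd23 had 1029 ± 322 CPM and Ankrd1 4.68 ± 0.157 CPM. Nebl, a relative of Nrap, had 1 read in replicate 1 and 0 in replicate 2. Of 40 list genes tested between libraries 14 were called, 12 higher in replicate 1 and 2 higher in replicate 2, where 13.5% of all genes tested were called, 6.89% higher in replicate 1 and 6.56% higher in replicate 2. The median log2 difference was 0.29 in the list and 0.24 over all genes tested. Genes with many reads can be called at small differences. Des, with 3978 reads in replicate 1 and 2019 in replicate 2, was called at a log2 difference of 0.17. The list was not matched to all genes by number of reads, and the part of read number in these calls was not tested.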

How the data were processed

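Long-read RNA-seq of gastrocnemius was analysed from what the authors deposited for each library: a table of read counts (whole numbers) for every transcript model and an annotation with its exons, on mm10 with GENCODE M21 identifiers. The aligner is not given in the sources used. Counts were taken as deposited and summed per annotated gene over all models. CPM were computed per 1000000 reads outside ERCC contigs. Unannotated models were joined across libraries by intron chain. Exons are numbered on the longest coding transcript.

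Gene counts and model shares were compared between libraries by Fisher's exact test, two-sided, with Benjamini-Hochberg adjustment over all genes with at least 10 reads in both libraries together (at least 20 per library for shares) and a threshold of 0.05. Log2 differences used a pseudocount of 0.5 reads. Intervals are Clopper-Pearson at 95%. Reads carry no molecular identifiers, so intervals and floors cover counting error only. Named were all 7 members, chains with at least 5% of complete reads and 3 reads in each library, choices in 5 to 95% of at least 10 informative reads per library, paralogs and the 4 partners with most reads; other names were chosen after their values were seen, as stated beside them. An item that these rules name is not reported here. The members and lists were chosen with earlier results of these data known. The tests of gene levels and of leading shares were checked on simulated counts that held counting noise only. The single-exon test was not checked in this way. Alternatives covered model classes, TMM factors (edgeR 4.0.16), DESeq2 1.42.0 size factors, filters, thinning and leaving out each replicate. Work was done in R 4.3.3 and in Python 3.11.15 with scipy 1.17.1, numpy 2.4.6, pandas 2.3.3 and matplotlib 3.10.9.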

Additional observations from a re-analysis of the deposited data

Results flagged for a closer look

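Reads on unannotated loci of the strand opposite Ankrd2 numbered 0 in replicate 1 and 4 in replicate 2. They are listed because they lie outside the counts of the gene and number more than 3 in a library, which is no test. Such reads numbered 3 and 0 opposite Nrap, 1 and 1 opposite Cmya5, and 0 and 1 opposite Xirp2.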

How the results depend on the processing

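Values recomputed under alternatives other than leaving out a replicate numbered 101. Of these, 76 kept their call, moved by no more than 1 SD or, for numbers of genes called, stayed within a set ratio of the main number. A further 23 moved further, 1 call was lost, 1 was gained and 0 reversed. Levels moved with the models counted. On complete models only, Flnc stood at 7.53 CPM, Xirp1 at 20.7, Xirp2 at 0.457, Nrap at 100.2 and Cmya5 at 4.00 CPM. On annotated models only, per 1000000 reads on such models, the levels were 7.85 for Flnc, 17.0 for Xirp1, 0 for Xirp2, 69.6 for Nrap, 401 for Smpx and 4.39 for Cmya5. These 2 settings leave out the partial reads that hold most of the long members, by construction.

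Over reads of all classes the leading model held 26.8% of Xirp1, 11.8% of Nrap, 76.1% of Smpx and 81.2% of Ankrd2, a larger total by construction. The Xirp1 intron was retained in 0% of reads on complete models and in 25.1% when genomic and single-exon models were also counted. That alternative was added after the data were seen, and against the main setting it raised the share in replicate 1 alone. Nrap exon 36 was included in 88.6% on complete models. With genomic models left out of the total, the complete share was 60.5% for Xirp1, 98.3% for Smpx and 84.5% for Ankrd2. Counting starts within 50 bases of any annotated start gave 97.4% for Smpx and 82.4% for Ankrd2. The numbers of genes called between libraries, 1070 for levels, 14 for leading shares and 328 for single-exon shares, ran from 838 to 929, stood at 15, and ran from 268 to 328 under their alternatives. Shares among complete models of Xirp2, Flnc and Cmya5 rest on few reads, since most of their reads were on partial models. No paired analysis was possible because the series holds 1 group.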

Other observations

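Csrp3, the muscle LIM protein of the Z-disc and a partner in the list, had 47 reads (42.9 CPM) in replicate 1 and 164 reads (262 CPM) in replicate 2, a log2 difference of -2.60 (Fisher's exact test, adjusted p = 2.47e-32). Hspb7 was the only other list gene called higher in replicate 2, with a log2 difference of -0.60 (Fisher's exact test, adjusted p = 0.0446). Both were named after their values were seen. In the list, 12 genes were called higher in replicate 1, among them Ankrd23 with a log2 difference of 0.65. Of all genes tested, 6.56% were called higher in replicate 2, Ankrd2 among them, so this direction links no genes.

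The choices at Nrap exon 12 and at the 3 bases before exon 6 can be read on the same molecules. In replicate 1 the 3 bases were kept in 42.7% of reads with exon 12 (44 kept, 59 not). Without exon 12 they were kept in 16.1% (5 kept, 26 not). In replicate 2 the shares were 39.3% (11 kept, 17 not) and 37.5% (6 kept, 10 not). With and without exon 36, the 3 bases were kept in 34.7% and 50% of reads in replicate 1. In replicate 2 these were 41.9% and 25%, the other direction. Exon 12 was included in 74.5% and 76.9% of reads with and without exon 36 in replicate 1. In replicate 2 these were 63.0% and 50%, again the other direction. The pair of exon 12 and the 3 bases was picked after its values were seen. None of these shares was tested.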
